A study of Mus musculus with 14 samples.

Results

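The genes described here encode 10 enzymes that make bile acids from cholesterol or conjugate them: *Cyp7a1*, *Cyp8b1*, *Cyp27a1*, *Cyp7b1*, *Hsd3b7*, *Akr1d1*, *Amacr*, *Slc27a5*, *Baat* and *Acnat2*. They were chosen by name for their roles in the pathway, and all 10 are among the 28022 genes of the count table. RNA-seq read counts were followed in 14 libraries from 7 conditions, with 2 libraries per condition.

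Mouse embryonic fibroblasts (Fib) from mid-gestation C57BL/6J embryos were the source of the converted hepatic cells. Induced hepatic stem cells (iHepSCs) had been made from them with lentiviral *Oct4* and *Hnf4α*, and these cells were sampled as a flat culture (2D-iH, labelled 2D-iHepSC), as a flat culture with induced endothelial cells (2D-iHE, labelled 2D-iHepSCiEC), as an organoid of iHepSCs alone (iHLO, labelled 3D-iHA) and as an assembloid with induced endothelial cells (iHEA, labelled 3D-iHEA). The endothelial cells carried *ETV2* and came from human HF1 fibroblasts, whose reads entered the table only as far as they fit a mouse gene. The iHepSCs of all 4 cultures carried the same transgenes, and all 4 were kept in the same assembloid medium with oncostatin M. The reference tissues were adult and fetal liver. In its PCR methods the study describes them as C57BL/6J liver from 6-week-old male adults and from mid-gestation fetuses. Its sequencing methods give no separate age or sex. The labels do not say whether the 2 libraries of a condition came from separate cultures or animals, so p-values measure only the spread between these libraries, which may be technical.

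Hepatocytes make bile acids along a pair of routes. The neutral route starts with 7α-hydroxylation of cholesterol by CYP7A1, its rate-limiting enzyme, and CYP8B1 then adds the hydroxyl group that separates cholic acid from chenodeoxycholic acid. The acidic route starts with oxidation of the side chain by CYP27A1 and continues with CYP7B1. Both routes share the ring-modifying enzymes HSD3B7 and AKR1D1, the racemase AMACR that prepares the side chain for shortening in peroxisomes, and the CoA ligase SLC27A5, and BAAT finally joins the bile acid to taurine or glycine. Acyltransferases of the ACNAT family lie beside *Baat* and act on related substrates.

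The libraries held 20851489 to 35143325 counts, and 16731 to 18948 genes had at least 1 count. Levels are given as CPM, counts relative to library size, scaled by the trimmed mean of M-values (TMM), an adjustment for libraries in which a few genes take many reads. The adult liver scaling factors were 0.445 and 0.451 against 1.09 to 1.22 elsewhere, and the albumin gene *Alb* alone had 8113083 and 7888792 counts in adult liver. The 7 hepatocyte markers reported here were all abundant in adult liver (15981 counts or more), whereas in the 8 cultures *Apoa1* had 5697 to 12149 counts, *Ttr* 31 to 2924 and *Alb* 2 to 210, and *Asgr1*, *Tdo2* and *Cps1* had 0 to 17. The seventh, the tyrosine aminotransferase gene *Tat*, had 1 to 11 counts in the 2D libraries, 43 and 71 in iHLO, and 538 and 62 in iHEA, so it stood apart in iHEA library 1. The cultures instead had 16159 to 31981 counts of *Krt19*, a cholangiocyte and epithelial keratin, and 10491 to 66016 of *Lgals4*, an intestinal lectin, but the lists they belong to were mixed. Of 6 cholangiocyte markers 4 were higher and 2 lower (*Sox9* and *Spp1*) in 3D than in adult liver, and of 6 intestinal markers 4 were higher and 1 lower (*Fabp2*), with *Isx* at 0 to 3 summed counts per culture condition and not tested. In that comparison 86.4% of all genes were called. *Hnf4a* had 4117 to 7670 counts in the cultures, where transgene and endogenous transcripts cannot be told apart. In fetal liver the erythroid globin gene *Hba-a1* had 280603 and 268674 counts, against 2404 and 2079 in adult liver, so that in these bulk samples fewer hepatocytes and less RNA per hepatocyte cannot be told apart. The study's methods describe male adults, but both adult liver libraries had *Xist* counts (14646 and 16368) and 0 counts of *Ddx3y*, *Eif2s3y*, *Kdm5d* and *Uty*. Within iHEA, 30 genes with at least 30 counts were at least 8-fold higher in library 1 than in library 2, against 0 to 9 genes in either direction in the other conditions and 7 in the reverse direction in iHEA.

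The promoters are printed for 3 of the 5 genes that had a promoter window, because they differ in whether the converted cells transcribed them. These are *Cyp27a1*, with 1079 to 4230 counts per culture library, and *Cyp8b1* and *Akr1d1*, which stayed at 0 to 3 counts. *Cyp7a1* and *Slc27a5*, also near 0 in the cultures, had no window. The sequences are the 250 bases before the RefSeq start on the gene's own strand (GRCm38.p6), at chr1:74713285-74713534 on the plus strand for *Cyp27a1*, chr9:121916306-121916555 on the minus strand for *Cyp8b1* and chr6:37529923-37530172 on the plus strand for *Akr1d1*. Capitals mark a match on either strand to 1 of 5 words: the HNF4 word CAAAGTCCA, the LRH-1 word TCAAGGTCA, the FOXA word TGTTTAC, the C/EBP word TTGCGCAA and the TATA word TATAAA. No match overlapped another in the sequences shown.
Cyp27a1: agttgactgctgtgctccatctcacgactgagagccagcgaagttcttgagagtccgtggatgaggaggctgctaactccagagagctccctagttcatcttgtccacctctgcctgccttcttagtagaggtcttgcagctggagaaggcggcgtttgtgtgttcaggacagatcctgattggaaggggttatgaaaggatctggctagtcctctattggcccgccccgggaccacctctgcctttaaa
Cyp8b1: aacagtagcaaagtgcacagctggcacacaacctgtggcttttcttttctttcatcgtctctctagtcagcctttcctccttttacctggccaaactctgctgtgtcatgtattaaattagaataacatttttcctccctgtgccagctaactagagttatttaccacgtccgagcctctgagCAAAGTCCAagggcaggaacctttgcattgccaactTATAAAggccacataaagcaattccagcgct
Akr1d1: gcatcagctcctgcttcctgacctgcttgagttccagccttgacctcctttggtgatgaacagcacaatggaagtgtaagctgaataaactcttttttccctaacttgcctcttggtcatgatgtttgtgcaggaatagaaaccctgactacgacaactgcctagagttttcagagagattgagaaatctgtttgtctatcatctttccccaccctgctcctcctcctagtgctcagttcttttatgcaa
The *Cyp8b1* sequence holds the HNF4 word 67 to 59 bases before the start and the TATA word 31 to 26 bases before it. The HNF4 word was found in 0.384% and the TATA word in 12.4% of the 32851 mouse promoters of the table, searched over the same 250 bases before the start. None of the 5 words was found in the *Cyp27a1* and *Akr1d1* windows, and a match or its absence describes these letters only. Of the 10 genes, 5 had a promoter window in the table used, and *Acnat2* had 2.

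*Cyp7a1* (chr4:6265612-6275633, minus strand, GENCODE M21 on GRCm38) was close to absent from every cultured library. It had 11642 and 11439 counts in adult liver and 18 and 14 in fetal liver. The 2D-iH libraries had 1 and 0 counts, the 2D-iHE libraries 1 and 1, the iHLO libraries 0 and 0, the iHEA libraries 0 and 1, and both Fib libraries had 0. The 8 culture libraries together therefore held 4 reads of the gene that opens the neutral route, below both fetal libraries. In CPM, adult liver was 1506-fold above fetal liver (exact 95% interval 1066 to 2202) and 47690-fold above the cultures together (18624 to 175045). These intervals, like all those on summed counts here, cover counting error only, and reads without molecular identifiers are not independent molecules. Against Fib, with 0 counts in both libraries, adult liver was at least 16973-fold higher, taking 3 counts over both libraries as the upper limit of a count of 0.

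*Cyp8b1* (chr9:121914356-121916305, minus strand), a gene of a single exon, followed the same order. Adult liver had 5961 and 6205 counts and fetal liver 25 and 18. Among the cultures, 2D-iH library 1 had 2 counts, iHEA library 1 had 1 count and the other 6 libraries had 0, as did both Fib libraries. The adult liver level was 591-fold above fetal liver (438 to 817) and 33517-fold above the cultures (11466 to 162547). With 1 count in the 4 3D libraries and 2 counts in the 4 2D libraries, the ratio of 3D to 2D was 0.518 with an interval from 0.00879 to 9.96, so no difference was detectable at this depth.

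*Cyp27a1* (chr1:74713574-74737892, plus strand), the mitochondrial hydroxylase of the acidic route, was the enzyme of this group with the highest level in the cultures. Its counts were 1629 and 1469 in 2D-iH and 1871 and 1079 in 2D-iHE, and the organoids had 3879 and 4162 (iHLO) and the assembloids 4230 and 3377 (iHEA). The Fib libraries had 99 and 84 counts, adult liver 16886 and 17946, and fetal liver 141 and 114. In CPM, the 4 2D libraries lay between 44.8 and 48.1 and the 4 3D libraries between 119 and 130, so the culture methods did not overlap. All 8 cultures lay above both Fib libraries (2.66 and 2.68 CPM) and both fetal liver libraries (4.15 and 3.69 CPM), and below both adult liver libraries (1105 and 1137 CPM).

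The comparison of 3D with 2D addressed whether a three-dimensional culture changed these genes. *Cyp27a1* rose by a log2 fold change of 1.46 (SE 0.04, n = 4 against 4, adjusted p = 1.03e-10, edgeR quasi-likelihood test). This fit pooled the conditions with and without endothelial cells within each culture method and had no term for these cells. The 4 libraries on each side are thus 2 from each of 2 conditions. The increase was 1.48 (SE 0.06, adjusted p = 9.48e-11) from 2D-iH to iHLO and 1.45 (SE 0.06, adjusted p = 1.39e-10) from 2D-iHE to iHEA. Neither addition of endothelial cells moved it beyond the spread, with a log2 difference of 0.01 (SE 0.05, adjusted p = 0.961) in iHEA against iHLO and 0.05 (SE 0.06, adjusted p = 0.694) in 2D-iHE against 2D-iH. Its mean level was 4.08% and 4.14% of adult liver in 2D-iH and 2D-iHE, and 11.1% and 11.0% in iHLO and iHEA.

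*Cyp7b1* (chr3:18071950-18243338, minus strand), the 7α-hydroxylase of oxysterols in the acidic route, was more abundant in the starting fibroblasts than in any culture. Its counts were 194 and 168 in Fib, 3 and 7 in 2D-iH, 3 and 2 in 2D-iHE, then 32 and 28 in iHLO, 14 and 9 in iHEA, 1755 and 1796 in adult liver, and 27 and 60 in fetal liver. The 4 2D libraries were the lowest, the 4 3D libraries lay above them without overlap, and both iHLO libraries lay above both iHEA libraries. In CPM the 2D libraries ranged from 0.0771 to 0.220, the 3D libraries from 0.319 to 0.978, and Fib was at 5.21 and 5.36.

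*Cyp7b1* passed the filter on low counts only through the 3D libraries, so in the filtered fit its direction was fixed and its values are a description. There the log2 difference of 3D against 2D was 2.50 (SE 0.48, adjusted p = 0.000563, n = 4 against 4 in the edgeR fit). In the fit without any filter, where 53.2% of genes were called, it rose by 2.52 (SE 0.48, adjusted p = 0.000219, edgeR). In the filtered fit the difference was 2.65 (SE 0.43, adjusted p = 9.43e-05) for iHLO against 2D-iH and 2.22 (SE 0.58, adjusted p = 0.00413) for iHEA against 2D-iHE. Without either of the iHLO libraries the gene fell under the filter on low counts and was not tested in 3D against 2D or in iHLO against 2D-iH. It was also under the filter, and not tested, in iHEA against 2D-iHE when only the libraries of that comparison were fitted. The lower level in iHEA than in iHLO, -1.28 (SE 0.37), had an unadjusted p of 0.00417 and did not pass the adjustment (adjusted p = 0.106, edgeR). The 3D means were 0.810% of adult liver in iHLO and 0.325% in iHEA, compared with 4.63% in Fib.

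Of the 3 genes of this group that passed the filter on low counts over the 8 cultures (*Cyp27a1*, *Cyp7b1* and *Amacr*), 2 were higher in 3D and 0 were lower, where 75.9% of all 13409 tested genes changed, 38.7% upwards and 37.2% downwards. *Cyp7b1* passed the filter only through the 3D libraries, where it is high, and *Baat*, higher in 2D, did not pass it, so the filter fixed part of this count and nothing is read from it. The same 2 were called in iHLO against 2D-iH, with 72.3% of genes called, and in iHEA against 2D-iHE, with 70.9% called. These shares are so high that a call in them does not set a gene apart. None of the 3 was called in iHEA against iHLO, where 2.26% of genes were, in 2D-iHE against 2D-iH, where 8.17% were, or for the difference between these co-culture effects, where 3.14% were. At an unadjusted p under 0.05 the counts were 1, 0 and 0 of 3 in these comparisons, and the DESeq2 Wald test also called 0 in each. The plot of log2 fold changes by culture comparison shows the 3 genes side by side.

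**Figure D1:**
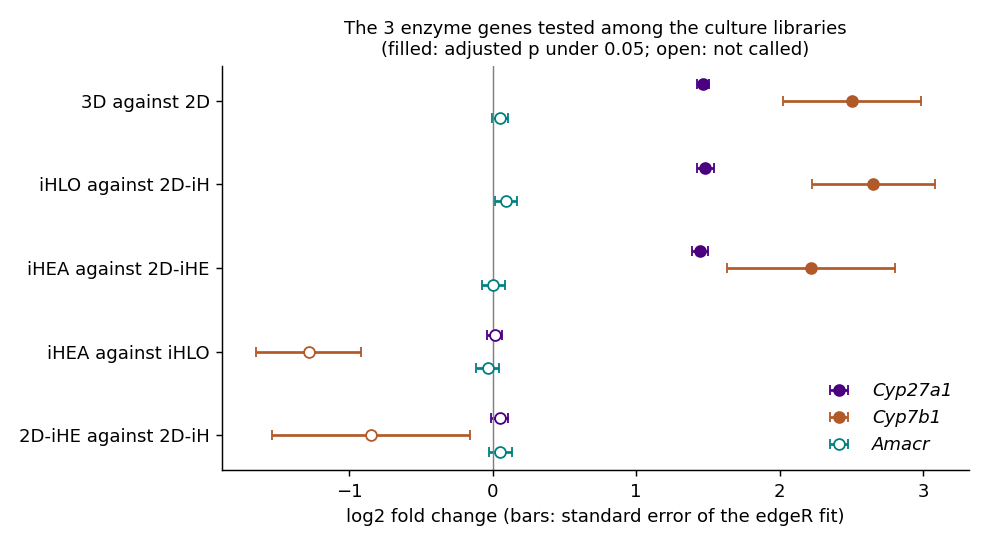
Log2 fold change (horizontal axis) of *Cyp27a1*, *Cyp7b1* and *Amacr* in 5 comparisons among the 8 culture libraries, with bars for the standard error of the edgeR fit, filled points for an adjusted p under 0.05 and open points for genes not called. *Cyp27a1* and *Cyp7b1* are filled in the 3 comparisons of 3D with 2D, and *Amacr* lies between -0.04 and 0.09 in the 5 comparisons shown.

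*Hsd3b7* (chr7:127800604-127803802, plus strand), whose product acts on the ring after 7α-hydroxylation, had 0 counts in all 14 libraries, adult liver included. It was 1 of 5373 genes, 19.2% of the table, listed at 0 throughout, so the table gives no level for it and no fold was computed. In the GENCODE M21 annotation 62.0% of its 2769 exon bases are shared with *Gm49388* on the same strand and 99.2% with another gene on either strand, which leaves 23 bases of its own when strand is ignored. Among protein-coding genes with over 90% of exon bases shared on either strand, 66 of 92 (71.7%) were at 0 in all libraries, compared with 136 of 5977 (2.28%) that share part of them and 1750 of 14219 (12.3%) that share none. How the authors' counting treated reads that fit more than 1 gene is not given in the sources used here, and its part in this value was not tested.

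*Akr1d1* (chr6:37530173-37568815, plus strand), the 5β-reductase that gives bile acids their bent ring system, had 10271 and 9968 counts in adult liver and 71 and 47 in fetal liver. The 2D-iH libraries had 3 and 1 counts, the iHEA libraries 3 and 2, and the Fib, 2D-iHE and iHLO libraries 0 each. Adult liver was 358-fold above fetal liver (299 to 433) and 18586-fold above the cultures (9789 to 40651), and fetal liver was 51.9-fold above the cultures (26.4 to 116). The summed counts of 5 in 3D and 4 in 2D differed by a ratio of 1.30 with an interval from 0.279 to 6.53. By pair there were 0 reads in iHLO against 4 in 2D-iH (ratio 0, interval 0 to 1.58) and 5 in iHEA against 0 in 2D-iHE. With 3 counts as the upper limit of a count of 0, iHEA was at least 1.71-fold higher than 2D-iHE. That limit leaves out the counting error of the 5 reads, so no direction is read from either pair.

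*Amacr* (chr15:10981756-10996626, plus strand), which inverts the methyl branch of the side chain and also serves branched-chain fatty acids outside the liver, was the most even gene of the group. In CPM it was 17.4 and 17.5 in Fib, 19.6 and 17.6 in 2D-iH, 20.1 and 17.7 in 2D-iHE, then 19.2 and 19.4 in iHLO, 19.2 and 17.9 in iHEA, 20.0 and 17.9 in fetal liver, and 257 and 261 in adult liver. The 12 libraries other than adult liver spanned 17.4 to 20.1 CPM, and their conditions overlapped except that both Fib libraries lay under all others. The log2 difference of 3D against 2D was 0.05 (SE 0.06, adjusted p = 0.427), and that of 2D-iH against Fib was 0.03 (SE 0.08, adjusted p = 0.754) and turned negative under DESeq2 size factors (-0.07). Adult liver was 13.6-fold above fetal liver (12.8 to 14.5) on summed counts.

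*Slc27a5* (chr7:12988346-12998192, minus strand), the very long-chain acyl-CoA synthetase that reactivates bile acids for conjugation, had the highest counts of the group in adult liver and among the lowest in culture. Adult liver had 31982 and 32766 counts and fetal liver 205 and 211. The Fib libraries had 9 and 8 counts, the 2D-iH libraries 3 and 1, the 2D-iHE libraries 0 and 0, the iHLO libraries 1 and 2, and the iHEA libraries 1 and 0. Each culture library thus lay below each Fib library, and the 8 cultures shared 8 reads. Adult liver was 325-fold above fetal liver (295 to 359) and 66891-fold above the cultures (33946 to 154944), and fetal liver was 206-fold above the cultures (104 to 480).

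*Baat* (chr4:49489422-49506557, minus strand), the amino acid conjugating enzyme, had 6570 and 6614 counts in adult liver and 27 and 29 in fetal liver. It had 11 and 9 counts in 2D-iH, 6 and 2 in 2D-iHE, 1 per library in iHLO, 5 and 1 in iHEA, and 2 and 0 in Fib. The 2D-iH libraries were the highest cultures, and the 2D and 3D libraries overlapped between 2 and 5 counts. The ratio of 3D to 2D was 0.296 (0.117 to 0.667) over all cultures and 0.105 (0.0118 to 0.430) for iHLO against 2D-iH, but for iHEA against 2D-iHE it was 0.771 (0.221 to 2.53), where no difference was detectable. *Baat* did not pass the filter in the culture fit. In the fit to which the enzyme genes under the filter were added, 75.9% of genes were called in 3D against 2D, and *Baat* fell by 1.65 on the log2 scale (SE 0.59, adjusted p = 0.0244, edgeR), a call that rests on 36 reads in 8 libraries and was not made in iHEA against 2D-iHE (-0.32, SE 0.72, adjusted p = 0.704, 70.9% of genes called). Adult liver was 492-fold above fetal liver (378 to 651) and 3027-fold above the cultures (2185 to 4323).

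*Acnat2* (chr4:49379840-49408151, minus strand) had 1595 and 1556 counts in adult liver and 16 and 15 in fetal liver. The Fib, 2D-iH and 2D-iHE libraries had 0 counts, the iHLO libraries had 1 and 2, and the iHEA libraries had 54 and 3. A single library, iHEA library 1, held 54 of the 60 reads in the 8 cultures. On summed counts iHEA was 20.1-fold above iHLO (6.54 to 100.3), and with iHEA library 2 alone the ratio was 2.29 (0.307 to 17.1). The gene did not pass the filter. With the enzyme genes added its log2 difference of 4.19 (SE 1.18) between iHEA and iHLO was not called (adjusted p = 0.116, edgeR), and without iHEA library 1 the same fit gave 1.17 (SE 1.13, adjusted p = 0.656). Without any filter the gene was called (adjusted p = 1.77e-06, 4.23% of genes called).

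In the same iHEA library 1, *Slco1a5*, an organic anion and bile acid transporter, had 103 counts against 3 in library 2 and 1 to 8 in the other cultures. *Acnat1*, the neighbouring paralog that holds 14.1% of the 100-base words of *Acnat2* transcripts, had 23 and 20 counts in iHEA and 17 and 18 in iHLO and did not set library 1 apart. Reads that fit both paralogs may have been split or dropped, and *Acnat2* values are uncertain to that extent. *Cyp7a1*, *Cyp7b1*, *Cyp8b1*, *Cyp27a1*, *Akr1d1*, *Baat*, *Slc27a5* and *Amacr* share no such word with any other gene. The plot of counts by culture library shows *Acnat2* next to *Baat* and *Akr1d1*.

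**Figure D2:**
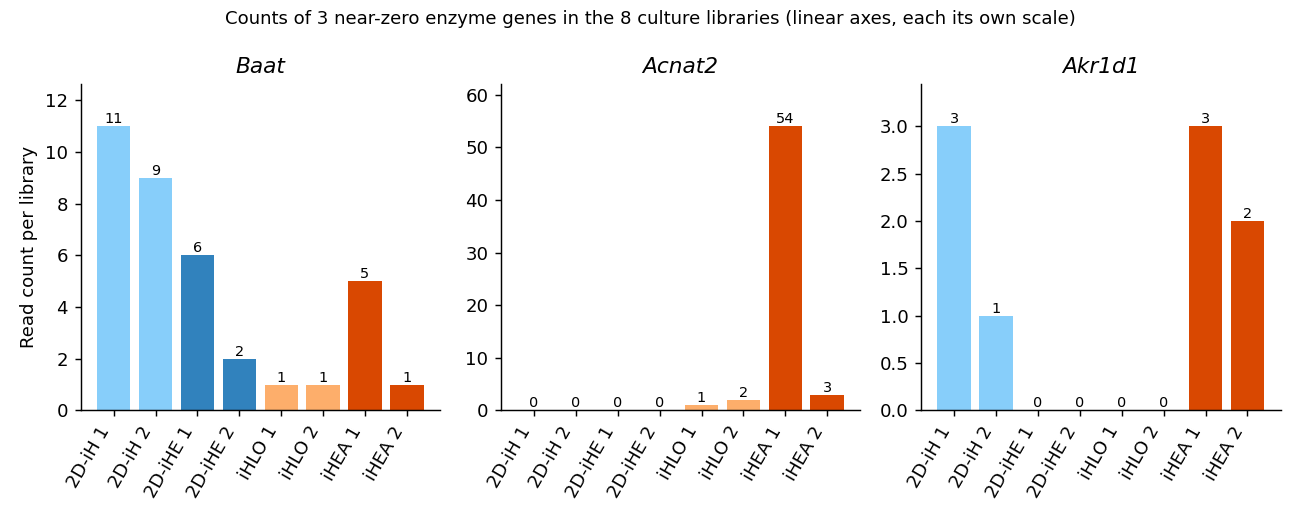
Read counts (vertical axis, a separate linear scale per gene) of *Baat*, *Acnat2* and *Akr1d1* in each of the 8 culture libraries, with 1 bar and its count per library. *Acnat2* stands at 54 in iHEA library 1 and at 0 to 3 elsewhere, *Baat* is highest in 2D-iH at 11 and 9, and *Akr1d1* ranges from 0 to 3.

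The conversion of fibroblasts was compared through 2D-iH against Fib, in a fit of all 14 libraries. The 2 conditions also differed in sex-linked reads, with 166457 summed counts of *Xist* and 352 of *Ddx3y* in Fib against 259 and 0 in 2D-iH. The part of this difference in the values below was not tested. Of 6 tested genes, 5 were called, 3 higher and 2 lower, where 83.9% of 14121 genes were called, 45.8% higher and 38.1% lower. *Cyp27a1* rose by 4.03 on the log2 scale (SE 0.09, adjusted p = 1.5e-15), and *Cyp7b1* fell by 5.19 (SE 0.35, adjusted p = 1.28e-09, edgeR). *Baat* rose by 3.11 (SE 0.69, adjusted p = 0.000636), from 2 to 20 summed reads. *Slc27a5* fell by 2.06 (SE 0.58, adjusted p = 0.00429) and was no longer called without 2D-iH library 2 (adjusted p = 0.0531). The call of *Akr1d1* (adjusted p = 0.0359), with 4 against 0 reads, was lost in 5 of its alternatives, with an adjusted p of 0.112 without Fib library 1, 0.0895 without Fib library 2 and 0.161 without 2D-iH library 1. *Akr1d1*, *Baat* and *Slc27a5* passed the filter of this fit only through their adult liver counts.

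Adult liver against fetal liver gives the range that the tissue itself spans. All 6 genes of this group that passed the filter were higher in adult liver, where 83.7% of genes were called and 40.8% were higher, and *Cyp7a1*, *Cyp8b1* and *Acnat2* were also higher when added to the fit (83.7% of genes called with them). The log2 differences were 3.83 for *Amacr* (SE 0.07), 6.47 for *Cyp7b1* (SE 0.18), 7.78 for *Acnat2* (SE 0.37), 8.22 for *Cyp27a1* (SE 0.09), 8.40 for *Slc27a5* (SE 0.09), 8.54 for *Akr1d1* (SE 0.10), 9.00 for *Baat* (SE 0.11), 9.26 for *Cyp8b1* (SE 0.12) and 10.61 for *Cyp7a1* (SE 0.11), and the largest adjusted p was 4.32e-10 (*Acnat2*, edgeR). *Akr1d1*, *Baat* and *Slc27a5* passed the filter only through adult liver and *Cyp7a1*, *Cyp8b1* and *Acnat2* did not pass it, so that the filter fixed the direction of the former and the counts are a description. When libraries were scaled by total counts alone, the median of all genes in this comparison moved from -0.06 to -1.54, and the differences shrank to 2.35 for *Amacr* and 6.73 for *Cyp27a1* while keeping their direction.

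*Cyp7b1* was the gene of the group whose fetal libraries differed most, at 0.795 and 1.94 CPM. Fetal liver library 2 also had more *Col1a1* (26916 against 16349 counts) and fewer reads of *Ddx3y* (151 against 885), and their part in the *Cyp7b1* value was not tested. In mouse liver *Cyp7b1* is known to be higher in males, and the adult libraries, which had no Y-linked reads, had 115 and 114 CPM of it, where the part of sex was not tested.

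The 3D cultures were compared with adult liver across the same fit. All 6 tested genes were lower in 3D, where 86.4% of genes were called and 40.7% were lower, and so were *Cyp7a1*, *Cyp8b1* and *Acnat2* when added (86.4% called with them). *Akr1d1*, *Baat* and *Slc27a5* had passed the filter only through adult liver, which fixed their direction, so these counts are again a description. *Cyp27a1* was the nearest to adult liver with a log2 difference of -3.33 (SE 0.05, adjusted p = 2.82e-18), followed by *Amacr* with -3.92 (SE 0.06) and *Cyp7b1* with -7.74 (SE 0.16). *Baat* was 6687-fold lower on summed counts (3393 to 15493) and *Akr1d1* 16425-fold lower (7037 to 50591). *Slc27a5* was 65683-fold lower (25652 to 241076), with 4 reads in the 4 3D libraries. Scaling by total counts moved the median of all genes from 0.10 to 1.61 and gave -1.81 for *Cyp27a1* and -2.41 for *Amacr*, in the same direction. This comparison and that of adult with fetal liver share the adult libraries.

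Against fetal liver the 3D cultures were not uniformly lower. Of 6 tested genes 1 was higher and 4 were lower, where 87.5% of genes were called, 43.5% higher and 44.0% lower. *Cyp27a1* was higher in 3D by 4.89 on the log2 scale (SE 0.08, adjusted p = 2.26e-17), about 124 CPM in both 3D conditions against 3.92 in fetal liver. *Akr1d1* (-6.66, SE 0.42), *Baat* (-3.94, SE 0.39) and *Slc27a5* (-7.73, SE 0.23) were lower, with adjusted p-values of 8.89e-08 or below in edgeR. *Cyp7b1* was lower by -1.27 (SE 0.31, adjusted p = 0.00121), but without fetal liver library 2 the difference was -0.54 (SE 0.31, adjusted p = 0.125). *Amacr* differed by -0.09 (SE 0.07, adjusted p = 0.211) and was called without fetal liver library 2 at -0.19 (adjusted p = 0.0383). With the genes under the filter added, 87.5% of genes were called, *Cyp7a1* and *Cyp8b1* were lower in 3D with 1 read each in the 4 libraries, and *Acnat2* was not called (-1.24, SE 0.92, adjusted p = 0.219).

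**Figure D3:**
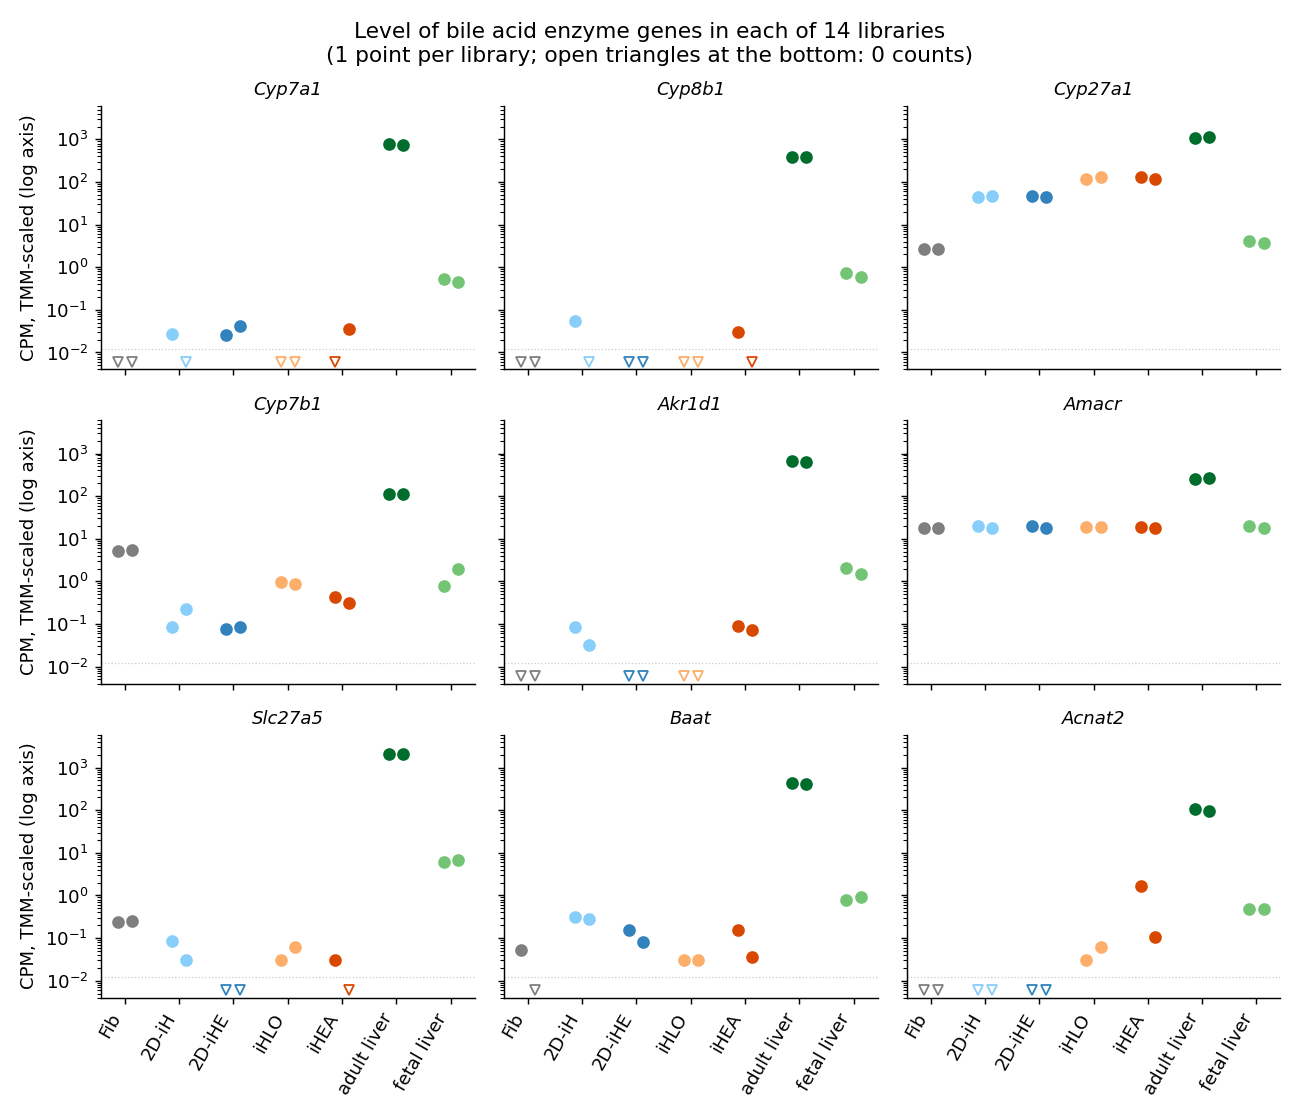
TMM-scaled CPM (vertical axis, log scale) of the 9 enzyme genes with reads, by condition, with 1 point per library and open triangles at the bottom for libraries with 0 counts. All 9 genes are highest in both adult liver libraries, *Cyp27a1* lies at 119 to 130 CPM in 3D and 44.8 to 48.1 in 2D, and *Amacr* is level outside adult liver.

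Expressed as a share of adult liver on the TMM scale, the fetal liver means ranged from 0.0661% (*Cyp7a1*) to 7.31% (*Amacr*). In iHLO the shares were 11.1% for *Cyp27a1*, 7.44% for *Amacr*, 0.810% for *Cyp7b1* and 0.0458% or less for the other 6 genes with reads. In iHEA they were 11.0%, 7.17% and 0.325% for the same 3 genes, 0.857% for *Acnat2* and 0.0220% or less for the other 5. The *Acnat2* share rests on iHEA library 1 (1.61%) and was 0.105% in library 2. Among condition means of the cultures, *Cyp27a1* and *Amacr* exceeded 1% of adult liver on this scale. Relative to total counts the shares were larger, with 28.2% for *Cyp27a1*, 18.9% for *Amacr* and 2.06% for *Cyp7b1* in iHLO and 2.21% for *Acnat2* in iHEA, so that 4 genes then exceeded 1%. The plot of percentages of adult liver sets the 9 genes in rows.

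**Figure D4:**
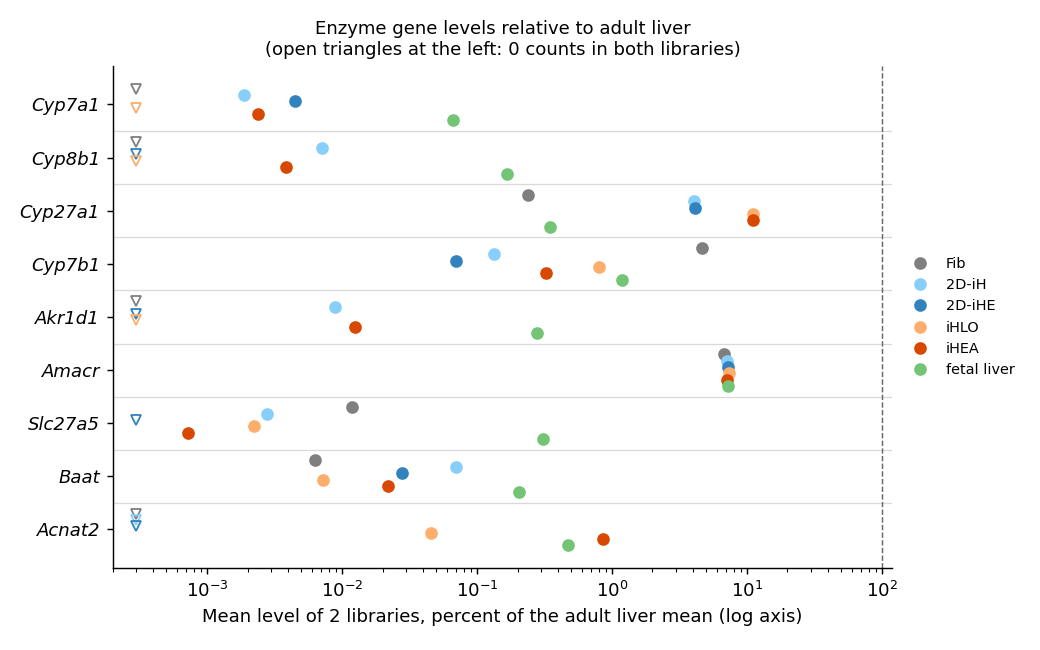
Mean TMM-scaled level of 2 libraries as a percentage of the adult liver mean (horizontal axis, log scale) for 9 enzyme genes in Fib, the 4 cultures and fetal liver, with open triangles at the left where both libraries had 0 counts and a dashed line at 100%. *Cyp27a1* in iHLO and iHEA stands at 11.1% and 11.0%, *Amacr* at 6.74% to 7.44% in all 6 conditions, and the remaining genes lie below 5%.

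Per kilobase of exon, which allows levels to be compared between genes, the order in adult liver was *Slc27a5* (855 ± 4.80 CPM per kb, SD, n = 2), *Cyp27a1* (516 ± 10.5), *Akr1d1* (225 ± 9.89), *Baat* (219 ± 3.94), *Cyp8b1* (201 ± 1.13), *Cyp7a1* (178 ± 6.26), *Amacr* (99.4 ± 1.06), *Acnat2* (58.2 ± 2.34) and *Cyp7b1* (52.8 ± 0.338). *Akr1d1* and *Baat* did not differ beyond their spread. In iHLO the order was *Cyp27a1* (57.1 ± 3.62), *Amacr* (7.40 ± 0.0582) and *Cyp7b1* (0.427 ± 0.0345), with the other genes at 0.0266 or less. In fetal liver *Amacr* led (7.27 ± 0.563), ahead of *Slc27a5* (2.64 ± 0.232) and *Cyp27a1* (1.80 ± 0.149). The gene that led adult liver, *Slc27a5*, was thus the second in fetal liver and had 1 and 2 reads in iHLO. The plot of levels per kilobase shows adult liver and iHLO.

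**Figure D5:**
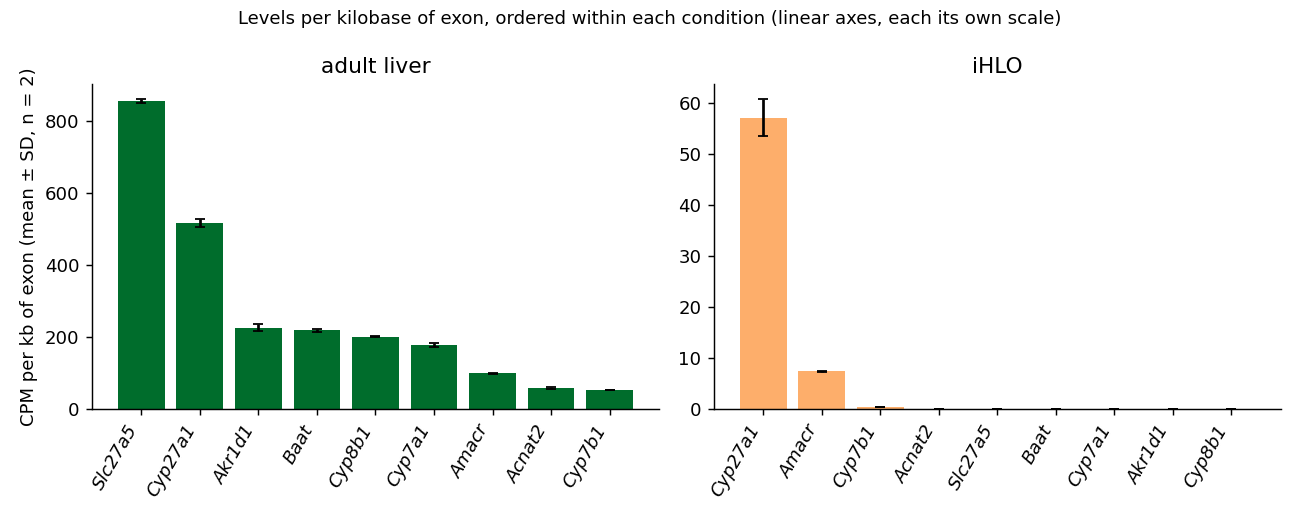
Level per kilobase of exon (vertical axis, CPM per kb, linear, a separate scale per panel) of 9 enzyme genes in adult liver and iHLO, as the mean of 2 libraries with the SD. *Slc27a5* leads adult liver at 855, and *Cyp27a1* leads iHLO at 57.1 while 6 genes lie at 0.0266 or less.

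Genes that act around this pathway gave a mixed picture. Of 14 other enzymes of bile acid synthesis and side-chain shortening, 9 were tested in the cultures and 5 were higher and 0 lower in 3D than in 2D, where 75.9% of all genes were called and 38.7% were higher. *Acnat1* passed the filter only through the 3D libraries. *Acnat1* rose by 2.26 on the log2 scale (SE 0.29), *Cyp39a1*, the 24-hydroxycholesterol 7α-hydroxylase, by 1.97 (SE 0.14), *Acot8*, a peroxisomal thioesterase, by 0.52 (SE 0.07) and *Scp2*, the peroxisomal thiolase and sterol carrier, by 0.31 (SE 0.03). *Cyp39a1* had 689 and 663 counts in iHLO, 443 and 451 in iHEA and 117 to 178 in 2D, and it was the 1 of 9 tested genes of this list called in iHEA against iHLO, where 2.26% of all genes were, at -0.49 (SE 0.10, adjusted p = 0.0289, edgeR). Fib had 1060 and 849 counts of it. *Slc27a2*, which activates the side chain of bile acid intermediates, had 0 or 1 counts in the 8 cultures, compared with 25223 and 26493 in adult liver, and *Akr1c6* had 0 to 4.

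Of 13 regulators of these enzymes, 8 were tested in the cultures, and 5 were higher and 1 lower in 3D than in 2D, a share called near the 75.9% of all genes. *Nr1i2*, the xenobiotic and bile acid receptor PXR, rose by 4.61 on the log2 scale (SE 0.21), from 4 to 6 counts in 2D to 104 to 133 in 3D, and passed the filter only through 3D. *Nr1h3*, the oxysterol receptor LXRα, rose by 0.87 (SE 0.22), whereas *Nr1h4*, the bile acid receptor FXR, fell by 0.38 (SE 0.16, adjusted p = 0.0462, edgeR). In iHLO against 2D-iH both were called, beside 72.3% of all genes. There *Nr1h3* had 1.02 (SE 0.36, adjusted p = 0.0221) and *Nr1h4* -0.52 (SE 0.21, adjusted p = 0.0371, edgeR). Neither of these receptor genes was called in iHEA against 2D-iHE, where *Nr1h3* had 0.73 (SE 0.36, adjusted p = 0.0900) and *Nr1h4* -0.23 (SE 0.21, adjusted p = 0.330). *Nr0b2*, the repressor SHP that lowers *Cyp7a1* transcription, did not pass the filter and had 0 to 5 counts in 2D and 20 to 50 in 3D, so its groups did not overlap. *Nr5a2*, the activator LRH-1, had 0 to 5 counts in all 8 cultures, against 1233 and 1274 in adult liver. In iHEA against iHLO, 0 of the 8 were called, where 2.26% of all genes were.

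Of 16 bile acid and sterol transporters, 6 were tested in the cultures, of which 4 were higher and 2 lower in 3D, beside 75.9% of all genes called. *Slc10a2*, *Abcg5* and *Abcg8* passed the filter only through the 3D libraries, so that their direction was fixed and their values are a description, and of the other 3 transporters 1 was higher and 2 were lower. *Slc10a2*, the apical bile acid importer of ileum and cholangiocytes, went from 1 to 5 counts in 2D to 337 to 629 in 3D, a log2 difference of 7.52 (SE 0.43). The sterol exporter genes *Abcg5* and *Abcg8* differed by 7.17 (SE 0.49) and 7.05 (SE 0.35). *Abcc2*, a canalicular exporter, fell by 1.77 (SE 0.35, adjusted p = 0.000737, edgeR). Its log2 difference was -2.51 (SE 0.17) in iHLO against 2D-iH and -0.72 (SE 0.18) in iHEA against 2D-iHE. The gap between these pairs was called at 1.79 (SE 0.25, adjusted p = 0.00263, edgeR). Of the 6 tested transporters 2 were called for this gap, where 3.14% of all genes were. The hepatocyte importer gene *Slc10a1* had 3 to 13 counts in the cultures and 20383 and 20697 in adult liver, and the bile salt export pump gene *Abcb11* had 0 to 20. In adult liver against fetal liver, 11 of 11 tested enzymes, 10 of 10 regulators and 10 of 12 transporters of these lists were higher, where 83.7% of all genes were called and 40.8% were higher. Of them 2 enzymes, 2 regulators and 1 transporter had passed the filter only through adult liver.

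Over the 7 condition means, the tested genes whose centred log2 CPM lay nearest to each enzyme gene were sought as a description of the pattern. The nearest to *Cyp7a1* was *Slco1b2*, a hepatocyte importer of organic anions, with a root mean square difference of 0.302, and the nearest to both *Cyp8b1* and *Akr1d1* was the carboxylesterase gene *Ces1g*, at 0.285 and 0.352. *Amacr* lay nearest to *Dhrs1*, at 0.136, and *Slc27a5* to *Ttpa*, at 0.501. *Cyp27a1* lay nearest to *Xkr9* (0.353) and *Cyp7b1* to *Cyp4v3* at 0.635. Only *Acnat2*, nearest to *Sec14l4* at 0.758, had a larger distance to its nearest gene. With Pearson's correlation over the 7 means as the measure, *Slco1b2* was again the nearest to *Cyp7a1*, but the nearest gene was a different one for each of the other 8 enzyme genes, so these neighbours depend on the measure.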

How the data were processed

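Total RNA of 14 libraries was sequenced by the authors as 150 bp paired-end reads, aligned with HISAT2 to GRCm38 (mm10), annotated with Cufflinks and counted with HTSeq. Trimmomatic 0.36 is listed in the submitters' processing notes. Other versions, the strand setting and the handling of reads shared between genes are not given in the sources used here. The deposited values are raw counts per gene as the authors left them, whole numbers with 20851489 to 35143325 per library. The second iHEA column carries numbers that conflict in its label and was used by condition only.

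Counts were tested with edgeR 4.0.16 in R 4.3.3: TMM scaling, a filter that kept genes whose log2(count + 1) averaged 3 or more in the fitted libraries, the quasi-likelihood test, Benjamini-Hochberg adjustment over all tested genes, and calls at an adjusted p under 0.05. Culture comparisons used a fit of the 8 culture libraries with a term for each condition, and the others a fit of all 14. For 3D against 2D the 8 libraries were instead fitted as 2 groups of 4, without a term for the endothelial cells. All 10 enzyme genes are named, and up to 4 called genes of each other list with the largest change, beside genes whose counts are given as a description. The regulators depart from this rule. *Nr1h4* is named as the regulator called lower in 3D against 2D, although called regulators with larger changes stay in the counts only. A regulator and a hepatocyte marker are not reported by name here, the regulator being kept in its list's counts. The enzyme genes, the lists and the named genes were chosen with earlier results of these data known. Ratios of summed counts carry exact 95% binomial intervals, and a count of 0 allows up to 3 counts. The tests were checked on simulated counts. Alternatives were other filters, scalings, the Wald test of DESeq2 1.42.0, a replicate block, other sets of libraries in the fit and each library left out. Alternatives added after seeing the data were the enzyme genes under the filter added to the fit, with all libraries and without iHEA library 1, and a fit without iHEA library 2, the library left out of the replicate block. Exon overlaps came from GENCODE M21 on GRCm38 and promoters from RefSeq (GRCm38.p6).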

Additional observations from a re-analysis of the deposited data

Results flagged for a closer look

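Among the 4 3D libraries or the 4 2D libraries, 1 library stood far from the other 3 in 7 cases, measured on TMM-scaled CPM as its gap to the nearest library over the whole range, so that the counts given beside it yield slightly different shares. Chance alone gives such a gap in about 1 of 20 groups of normally distributed values, a rate that does not hold for counts near 0, where a single read in 1 library is enough. For *Acnat2* in 3D the share was 0.953, with 54 counts in iHEA library 1 and 1 to 3 in the others. For *Baat* in 3D it was 0.96, with 5 counts in the same library and 1 in each of the others. For *Cyp7b1* in 2D it was 0.954, with 7 counts in 2D-iH library 2 against 2 or 3. For *Amacr* in 3D it was 0.857, where iHEA library 2 was the lowest with 505 counts. For *Cyp7a1* in 3D and for *Cyp8b1* in 3D and in 2D it was 1, since 1 library had 1 or 2 reads and the other 3 had 0.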

How the results depend on the processing

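Of 573 recomputed log2 fold changes of the enzyme genes, 544 kept their direction and their side of the threshold. Those that changed sign were uncalled values. *Amacr* became -0.000551 (DESeq2 size factors) and -0.032 (fit of all 14 libraries) in iHEA against 2D-iHE, and -0.14 (filter of at least 5), -0.066 (DESeq2 size factors), -0.066 (DESeq2 Wald test) and -0.040 (only the libraries compared) in 2D-iH against Fib. *Cyp27a1* became -0.00199 without a filter in iHEA against iHLO and 0.017 with the replicate block for the difference of co-culture effects. Leaving out 1 library gave *Amacr* a range of -0.055 to 0.11 in 2D-iH against Fib, -0.020 to 0.14 in 2D-iHE against 2D-iH and -0.058 to 0.074 in iHEA against 2D-iHE (-0.030 without iHEA library 1 and with the genes under the filter added). It gave *Cyp27a1* -0.051 to 0.083 in iHEA against iHLO (-0.017 without iHEA library 1 and with those genes added) and -0.10 to 0.034 for the difference of co-culture effects, and *Cyp7b1* -1.23 to 0.13 for that difference (-0.43, SE 0.88 with all libraries, positive only without 2D-iH library 1).

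The number of enzyme genes called moved mainly with how many were tested. With no filter it was 4 in 3D against 2D (2 in the main fit), 1 in iHEA against iHLO (0) and 8 in 3D against fetal liver (5), with 53.2%, 4.23% and 67.7% of all genes called. With the filter of at least 5 it was 1 in 3D against 2D, in iHLO against 2D-iH and in iHEA against 2D-iHE, 2 in 2D-iH against Fib (5 in the main fit), and 3 in each of adult against fetal liver (6), 3D against adult liver (6) and 3D against fetal liver (5), with 74.2% to 88.7% of all genes called. With only the libraries compared it was 1 in iHEA against 2D-iHE, 2 in 2D-iH against Fib and 3 in 3D against fetal liver (67.4% to 87.6% of all genes called). The fit of all 14 libraries gave 4 in iHLO against 2D-iH (67.8%), and adding the genes under the filter gave 4 in each of the 3 comparisons of 3D with 2D (70.9% to 75.9%). Leaving out 1 library gave 1 to 4 in 3D against 2D (4 with the genes under the filter added, without iHEA library 1), 1 to 2 in iHLO against 2D-iH, 2 to 3 in iHEA against 2D-iHE, 4 in 2D-iH against Fib, 5 to 6 in adult against fetal liver, 5 to 7 in 3D against adult liver, 4 to 6 in 3D against fetal liver (63.4% to 87.2% of all genes called in these fits) and 0 in the other 3 comparisons (0.695% to 7.17%).

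The numbers in the labels did not pair the libraries: deviations of equally numbered libraries correlated between -0.0775 and 0.115 over 15 pairs of conditions. The fit with the number as a replicate block leaves out iHEA library 2, which has no usable number. In it 2 enzyme genes were called in 3D against 2D (72.5% of all genes) and 4 in 2D-iH against Fib (84.0%), where the call of *Akr1d1* was lost (adjusted p = 0.0612, against 0.0441 over the same libraries without the block), and no other call of an enzyme gene changed. Calls among all genes went from 303 to 617 in iHEA against iHLO, from 1096 to 1945 in 2D-iHE against 2D-iH and from 421 to 772 for the difference of co-culture effects, but leaving out iHEA library 2 without a block already gave 646, 2002 and 791, so the added calls came with the library left out and not with the block. This fit was added after seeing the data. Scaling by total counts raised the level in culture, fetal and Fib libraries by 1.09 to 1.22 times and lowered that in adult liver to 0.445 to 0.451 of its value. At this depth, genes with fewer than about 10 reads in a condition could be compared only within wide counting intervals.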
